A study of Mus musculus with 721 samples.

Results

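Imprinted genes were followed across the mouse embryo from the blastocyst to early gastrulation. The members were 40 genes chosen by symbol from established imprinted domains, of which 37 had a row among the 24483 genes of the count table. Rian, Mirg and Kcnq1ot1 had no row, so no level is given for them. Single-cell RNA sequencing (Smart-seq2 cDNA from cells whose genome and transcriptome were separated) covered 721 libraries from wild-type embryos of the inbred strain C57Bl/6Babr, taken at embryonic day (E) 3.5 and E4.5 (blastocyst) and at E5.5 and E6.5 (after implantation). The E6.5 group holds 2 embryos titled E6.75, with 54 and 19 epiblast-like cells. The trophectoderm had been removed by immunosurgery at E3.5 and E4.5, the extra-embryonic ectoderm was taken off at E5.5, where epiblast and visceral endoderm were plated separately, and extra-embryonic tissues were dissected away at E6.5. All embryos shared the same strain and genotype, so reads could not be assigned to a parental allele, and every value below is the sum of both alleles.

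An imprinted gene is expressed mainly from the copy inherited from 1 parent, because the egg or sperm left DNA methylation at a control region of its domain. Zfp57 binds methylated control regions and, together with Trim28, protects them while the rest of the genome loses methylation in the early embryo. Many paternally expressed genes promote fetal or placental growth and many maternally expressed genes restrain it, and several act mostly in extra-embryonic tissue. Of the 40 members, 22 are known for paternal expression, 17 for maternal expression, and Gnas has promoters of both kinds.

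The hexamer recognised by Zfp57, TGCCGC, was searched on both strands of the promoters listed by RefSeq for GRCm38.p6, each running from 250 bases before to 50 bases after a start site. It was found in 12 of 46 member promoters (26.09%) and in 11.61% of all 32851 promoters. The 46 promoters belong to 32 of the 40 genes, and some lie close together, such as 2 of Mest that start 3 bases apart. Counted once per gene, the hexamer was found in 11 of 32 members and in 3527 of 27025 genes. The median number of CpG dinucleotides was 15.5 in member promoters and 7 in all promoters. The 250 bases before a start site are shown for 3 members whose levels changed, 1 paternally expressed and 2 maternally expressed, with each hexamer in capitals. They are Mest at chr6:30737800-30738049 (plus strand), Meg3 at chr12:109540746-109540995 (plus strand) and Grb10 at chr11:12037421-12037670 (minus strand).
Mest: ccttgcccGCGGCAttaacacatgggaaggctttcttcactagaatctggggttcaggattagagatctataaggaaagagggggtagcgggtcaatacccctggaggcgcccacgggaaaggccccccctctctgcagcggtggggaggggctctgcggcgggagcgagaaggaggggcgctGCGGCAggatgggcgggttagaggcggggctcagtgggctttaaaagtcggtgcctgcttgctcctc
Meg3: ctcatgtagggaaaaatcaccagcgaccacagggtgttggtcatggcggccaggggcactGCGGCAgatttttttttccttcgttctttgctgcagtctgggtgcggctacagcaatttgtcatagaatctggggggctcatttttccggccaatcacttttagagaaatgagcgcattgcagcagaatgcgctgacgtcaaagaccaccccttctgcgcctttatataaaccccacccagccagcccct
Grb10: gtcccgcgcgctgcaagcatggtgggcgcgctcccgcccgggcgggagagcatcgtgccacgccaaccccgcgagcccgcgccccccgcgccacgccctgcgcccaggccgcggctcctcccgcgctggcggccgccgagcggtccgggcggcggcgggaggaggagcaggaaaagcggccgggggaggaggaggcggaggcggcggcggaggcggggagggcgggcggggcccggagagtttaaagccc
The Mest stretch holds 2 hexamers and 14 CpG dinucleotides, the Meg3 stretch 1 hexamer and 10 CpG dinucleotides, and the Grb10 stretch 0 hexamers and 40 CpG dinucleotides. The Grb10 promoter still counts among those with the hexamer, because 1 lies in the 50 bases after the start site, which are not shown. Where the hexamer lies on the other strand it appears as GCGGCA. A hexamer is a match of letters and was not tested for binding.

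The libraries held 66896 to 3792936 counts (median 692863). Cells were grouped by clustering that left out the members, and clusters were named from marker genes: 99 cells of 10 embryos at E3.5, 76 endoderm-like and 29 epiblast-like cells of 5 embryos at E4.5, 260 epiblast-like cells of 9 embryos at E5.5, and 42 endoderm-like and 173 epiblast-like cells at E6.5. At E4.5 the endoderm-like cells are called primitive-endoderm-like (PrE-like). Markers of endoderm summed to 19772 to 31964 CPM (counts relative to the TMM-scaled library size) per embryo in PrE-like cells against 2203 to 6923 CPM in E4.5 epiblast-like cells, and to 14553 to 39367 CPM in E6.5 endoderm-like cells against 773 to 5437 CPM in E6.5 epiblast-like cells. Sums of counts were made per embryo and class wherever 3 or more cells were available, which gave 10 sums at E3.5, 5 of each class at E4.5, 8 of epiblast-like cells at E5.5, and 8 of endoderm-like and 13 of epiblast-like cells at E6.5. Wells labelled as holding 2 cells were 9 of 99 at E3.5, 30 of 76 PrE-like, 8 of 29 E4.5 epiblast-like, 66 of 260 E5.5 epiblast-like, 4 of 42 E6.5 endoderm-like and 9 of 173 E6.5 epiblast-like, and they were kept, so shares of detecting cells are shares of wells. The labels do not say whether plates of the same name at different stages were the same plate, so stage and plate cannot be told apart. For 9 of the E3.5 cells the labels give no embryo number, and these cells were assumed to come from the same embryo. The count by labels was 37 embryos over all stages, more than the paper states, and the reason for the difference was not tested.

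**Figure D1:**
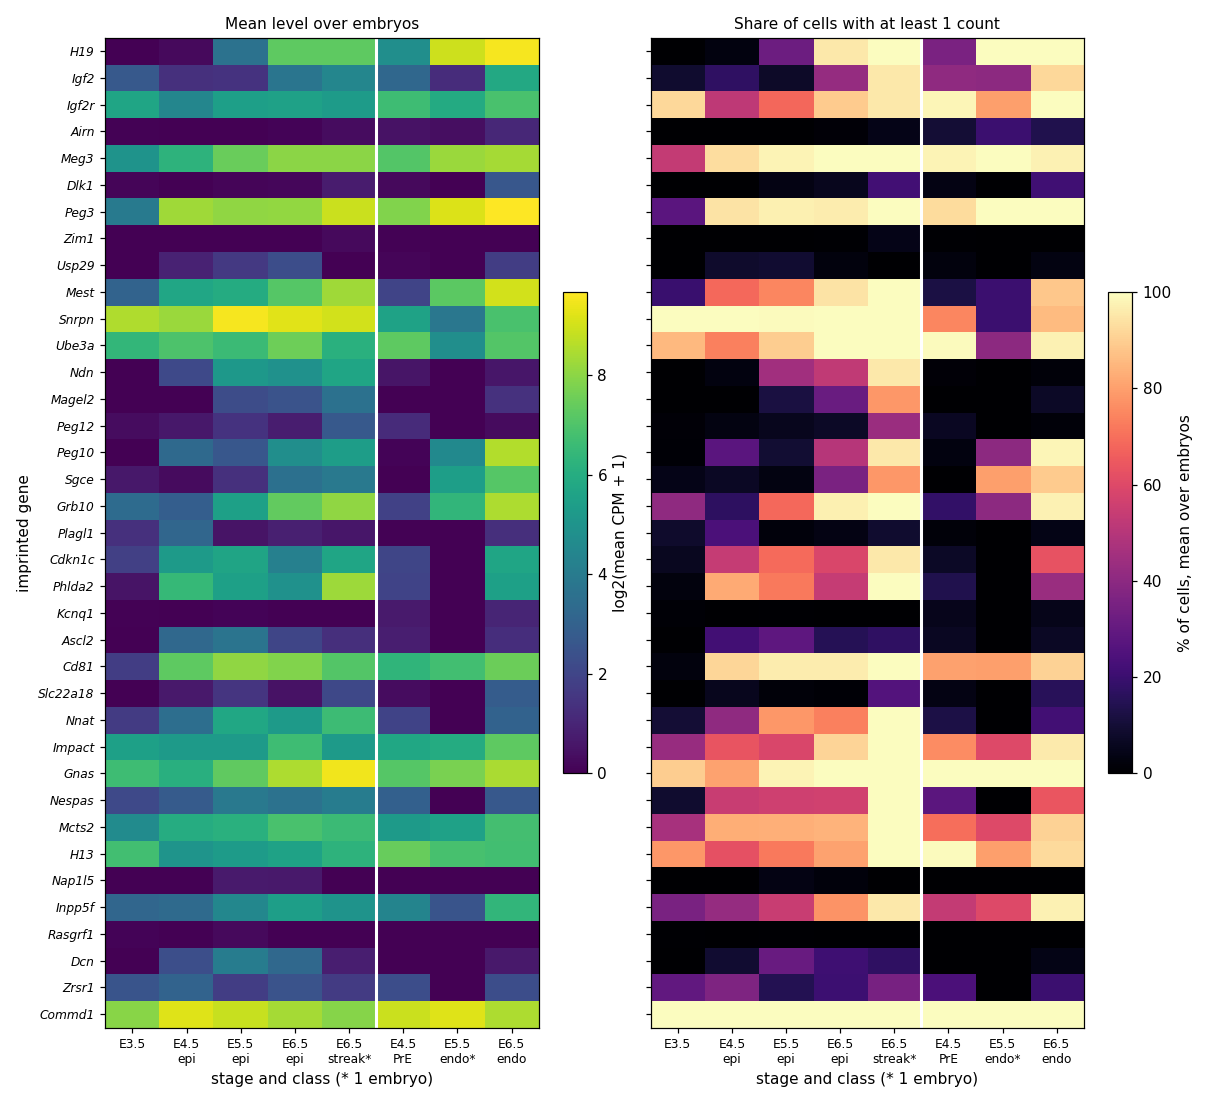
Mean level over embryos as log2(mean CPM + 1) (left) and mean percentage of cells with at least 1 count (right) for the 37 measured imprinted genes (vertical) in each stage and class (horizontal; epi, epiblast-like; PrE, primitive-endoderm-like; endo, endoderm-like; streak, primitive streak-like; an asterisk marks classes with 1 embryo). The number of genes found in at least 50% of cells is 7 at E3.5, 15 in E4.5 epiblast-like, 18 in E5.5 epiblast-like, 21 in E6.5 epiblast-like, 12 in PrE-like and 20 in E6.5 endoderm-like cells.

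The number of members detected was larger at each later stage. A member was counted where the mean share of cells with at least 1 count, taken over embryos, was at least 50%. By this measure 7 members were detected at E3.5, 15 in E4.5 epiblast-like cells, 18 in E5.5 epiblast-like cells and 21 in E6.5 epiblast-like cells, and 12 and 20 in PrE-like and E6.5 endoderm-like cells. With each cell thinned to 300000 counts, and shallower cells left out (46 of the 721), the numbers were 7, 12, 16 and 18 along the epiblast and 11 and 19 in the endoderm. The share of all genes that reached 50% in each class is not given here, so these increases may not be particular to the members. Commd1, Gnas, H13, Igf2r, Meg3, Snrpn and Ube3a reached 50% in each of these 6 classes. At E3.5 no count was found in any of the 99 cells for 9 members, Ascl2, Dcn, H19, Magel2, Nap1l5, Ndn, Slc22a18, Usp29 and Zim1, and for each of them 0 of 99 cells allows a share of cells with a count of up to 3.03%, a limit that covers counting error only and not the spread between embryos. In all, 10 members were rare, with a count in under 50 of the 721 libraries, 4 of them among the 9 just named: Airn, Dlk1, Kcnq1, Nap1l5, Peg12, Plagl1, Rasgrf1, Slc22a18, Usp29 and Zim1.

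Per kilobase of exon in E6.5 endoderm-like cells, H19 had the largest mean level of the 37 members (304 CPM per kb), followed by Mest (130 CPM per kb) and Mcts2 (121 CPM per kb). Differences were tested between embryos with edgeR's quasi-likelihood test on the sums and Benjamini-Hochberg adjustment over all genes. To pass, a gene needed an adjusted p no higher than 0.05 together with a log2 fold change above 2 for the E4.5 classes (the limit of the study) or above 1 elsewhere. The p-values measure the spread between these embryos. Over the 7 comparisons 24 members passed at least once and 54 member changes passed in all. The 9 members that passed the filter on low counts in no comparison were Airn, Dlk1, Kcnq1, Kcnq1ot1, Mirg, Nap1l5, Rasgrf1, Rian and Zim1, which include the 3 with no row.

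From E3.5 to the E4.5 epiblast-like cells, 14 of 31 members tested rose (13.3% of all 13253 genes tested were higher), 1 fell (7.89% of all genes were lower) and 16 did not pass. The median log2 fold change was 1.31 over the members and 0 over all genes, and 1.33 over the members with genes at 0 set to the lower limit of their change. Peg3, Phlda2, Cd81, Peg10 and Mest were among those that rose and H13, an intramembrane protease, was the member that fell. The filter on low counts was applied to the sums of E3.5 and of all epiblast-like stages together, for all genes. A gene could therefore be tested here through its level at E5.5 or E6.5. Magel2, among those that did not pass, had no count in either group. H19, Usp29, Ndn, Ascl2, Slc22a18 and Dcn rose from no count at E3.5 and could not have fallen. The E3.5 cells were not split into lineages, so this comparison sets all inner cell mass cells against 1 lineage.

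At the later steps of the epiblast fewer members passed, and so did fewer of all genes. From E4.5 to E5.5, H19, Snrpn, Magel2, Grb10 and Gnas rose, 5 of 31 members against 3.66% of all genes higher, and 0 were lower against 3.04% of all genes. From E5.5 to E6.5, H19, Grb10 and Gnas rose again, 3 of 31 members against 3.67% higher, and 0 were lower against 5.09%. The number not called is no sign of stability. In each of these steps 9 of 31 members had an unadjusted p of at most 0.05 (edgeR). Of all 13253 genes, 2714 had one from E4.5 to E5.5 and 3192 from E5.5 to E6.5. With DESeq2 instead of edgeR, 7 members passed from E5.5 to E6.5. The consecutive steps share the embryos of the stage between them, and all rest on 1 fit.

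The lineages were compared at E4.5 and at E6.5, with log2 limits of 2 and 1, so the counts of the 2 stages are not on the same footing. At E4.5, PrE-like cells had less Mest, Snrpn and Phlda2 and more H13 than epiblast-like cells, so of 21 members tested 3 were lower (3.70% of 10119 genes) and 1 was higher (5.32%). At E6.5, endoderm-like cells had more H19, Igf2, Igf2r, Peg3, Mest, Peg10, Sgce, Grb10 and H13 and less Snrpn and Ndn, so of 25 members 9 were higher (5.82% of 10326 genes) and 2 were lower (3.57%). The median log2 difference over members was -0.49 at E4.5 (0.08 over all genes) and 0.69 at E6.5 (-0.02 over all genes). Within the endoderm, from PrE-like cells at E4.5 to endoderm-like cells at E6.5, 11 of 23 members rose (4.41% of 10317 genes) and 0 fell (3.81%), with a median of 1.58 over members and -0.03 over all genes.

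The change in the lineage difference itself passed the test for 5 of 28 members, Peg3, Mest, Peg10, Sgce and Cdkn1c. All moved toward endoderm (0.910% of 12414 genes), and 0 moved toward epiblast (1.30%). The median of this term was 0.46 over members and -0.21 over all genes. With the embryo as a block, 4 members passed at this step, 3 of them among the 5, and 6 instead of 11 passed in the E6.5 comparison, 5 of them among the 11. The values affected are given with each gene.

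**Figure D2:**
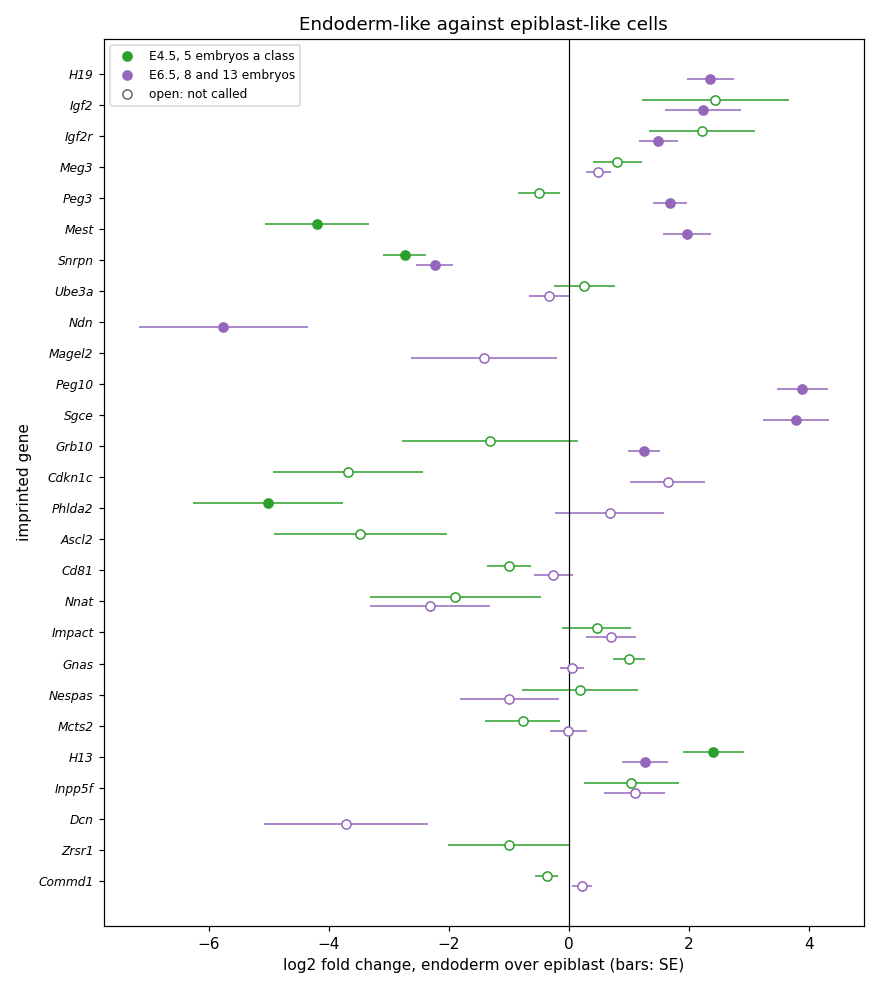
Log2 fold change of endoderm-like over epiblast-like cells (horizontal; bars, SE) for each imprinted gene tested (vertical) at E4.5 (green, 5 embryos in each class) and E6.5 (purple, 8 and 13 embryos). Filled points passed the adjusted p and the log2 limit, and Mest lies at -4.19 at E4.5 and at 1.97 at E6.5.

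H19, a maternally expressed long non-coding RNA (chr7:142575529-142578143, minus strand, GRCm38), rose from E4.5 on in the epiblast. It had 0 counts in all 10 E3.5 embryos and 6 counts in E4.5 epiblast-like cells, which came from 1 of 29 cells. In E5.5 epiblast-like cells it ranged from 2.89 to 50.4 CPM (median 7.65) and in E6.5 epiblast-like cells from 31.2 to 356 CPM (median 117), and it was detected in 32.4% ± 13.3 (SD, n = 8) and 95.4% ± 8.55 (n = 13) of cells. The E5.5 embryos all lay above the E4.5 embryos, and 10 of 13 E6.5 embryos lay above every E5.5 embryo. Without the 2 E5.5 cells that carry trophoblast genes, the E5.5 maximum, in CPM without TMM scaling, was 14.1 in place of 49.7. The log2 fold changes were 5.40 (SE 1.01, adjusted p = 0.000692, edgeR) and 3.74 (SE 0.64, adjusted p = 0.000151). The rise from E3.5 to E4.5 passed as well (adjusted p = 0.0295, at least 3.67-fold higher than a floor of 3 counts in the E3.5 group), but without E4.5 embryo 5, the source of the 6 counts, its log2 fold change was 0 (adjusted p 0.0148 to 1 over all alternatives, missing the threshold also with DESeq2, with classes from Ward clustering and with sums of at least 5 cells). The endoderm markers summed to 741 to 1107 CPM (median 966) in E5.5 epiblast-like sums. In E6.5 epiblast-like sums they summed to 773 to 5437 CPM (median 2100). The part of endoderm RNA in the E5.5 to E6.5 rises of H19, Grb10 and Gnas was not tested.

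In the endoderm H19 was already present at E4.5. The 5 embryos had 0.781, 45.7, 11.8, 0.377 and 73.1 CPM in PrE-like cells and 0, 0, 0, 0 and 0.937 CPM in epiblast-like cells, so it was higher in PrE-like cells within each embryo, although too low overall in these sums to pass the filter for a test. E6.5 endoderm-like cells had 226 to 1488 CPM (median 773) and H19 was found in every one of their 35 cells. All 8 lay above the E4.5 embryos (log2 fold change 4.88, SE 0.9986, adjusted p = 0.00463), and 7 of 8 lay above all 13 embryos of epiblast-like cells (2.36, SE 0.39, adjusted p = 0.000170). Within the 8 embryos that had both classes, H19 was higher in the endoderm-like cells in 8.

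Igf2, the paternally expressed growth factor next to H19, ranged from 0 to 39.4 CPM (median 0.444) at E3.5, where the maximum without cells that carry trophoblast genes was 3.31 in place of 43.0 in CPM without TMM scaling. At E4.5 it ranged from 0.781 to 19.2 CPM in PrE-like and from 0 to 4.08 CPM in epiblast-like cells, higher in PrE-like cells in 5 of 5 embryos. It ranged from 0 to 5.75 CPM (median 0.498) in E5.5 epiblast-like cells. In E6.5 epiblast-like cells it ranged from 0 to 35.6 CPM (median 6.95) and in endoderm-like cells from 18.1 to 119 CPM (median 43.3), with 42.3% ± 27.7 (SD, n = 13) and 92.1% ± 15.8 (n = 8) of cells detecting it. The 2 groups overlapped, with 4 of 8 endoderm-like sums above all epiblast-like sums (log2 fold change 2.23, SE 0.63, adjusted p = 0.0206), and with the embryo as a block the adjusted p was 0.0516. It was 0.162 on plates P1 to P3 alone and 0.105 in embryos without a plate name alone (0.00208 to 0.205 over all alternatives). From PrE-like to E6.5 endoderm-like cells Igf2 rose by 2.79 on the log2 scale (SE 0.76, adjusted p = 0.0286), a call lost without E4.5 embryo 1, 3, 4 or 5 (adjusted p = 0.0530, 0.0524, 0.0767 and 0.0716; 0.000394 to 0.187 over all alternatives). Exons of Gm49394 on the same strand overlap 62.83% of Igf2 exon bases.

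Igf2r, the maternally expressed receptor that carries Igf2 to the lysosome, was detected in 91.8% ± 10.9 of E3.5 cells (SD, n = 10). The 5 PrE-like sums had 90.4, 52.4, 38.0, 74.0 and 244 CPM and the epiblast-like sums 1.51, 0.582, 18.4, 13.9 and 69.8 CPM, higher in PrE-like cells in 5 of 5 embryos but with a log2 difference of 2.22 (SE 0.88) that did not pass (adjusted p = 0.111). At E6.5 the endoderm-like sums had 44.4 to 275 CPM (median 96.4) and the epiblast-like sums 22.1 to 83.2 CPM (median 42.2). The groups overlapped, with 5 of 8 endoderm-like sums on top (log2 fold change 1.49, SE 0.33, adjusted p = 0.00293). The adjusted p was 0.0569 with the embryo as a block and 0.255 on plates P1 to P3 alone (0.000158 to 0.255 over all alternatives). Airn, the antisense RNA that silences the paternal Igf2r, reached at most 7.44 CPM in any embryo.

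Grb10, an adaptor protein that dampens insulin and Igf signalling (chr11:11930508-12038683, minus strand), rose through the epiblast from E4.5 on. It ranged from 0 to 36.7 CPM (median 6.88) at E3.5 and from 0 to 18.6 CPM (median 6.42) in E4.5 epiblast-like cells, where 2 of 5 embryos had none. It ranged from 29.0 to 57.8 CPM (median 42.8) at E5.5 and from 78.3 to 253 CPM (median 160) at E6.5, so that neither stage overlapped with the one before. The log2 fold changes were 2.73 (SE 0.79, adjusted p = 0.0259) and 1.88 (SE 0.58, adjusted p = 0.0298), and the former did not pass without E4.5 embryo 1, 2, 3 or 4 (adjusted p = 0.0553, 0.0643, 0.0577 and 0.0612; 0.00187 to 0.0643 over all alternatives). The latter did not pass with single-cell wells alone or with E6.5 embryos without a plate name alone (0.00188 to 0.421 over all alternatives).

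In PrE-like cells Grb10 ranged from 0 to 6.27 CPM and in E6.5 endoderm-like cells from 110 to 674 CPM (median 357), a rise of 7.20 on the log2 scale (SE 0.94, adjusted p = 0.000114) with no overlap. E6.5 endoderm-like cells also exceeded epiblast-like cells (log2 fold change 1.25, SE 0.27, adjusted p = 0.00282), with 5 of 8 sums above all 13 and 7 of 8 embryos higher within the embryo. With the embryo as a block the adjusted p was 0.0586, and in embryos without a plate name alone the log2 fold change was 0.18 (adjusted p = 0.765; 0.000212 to 0.765 over all alternatives).

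**Figure D3:**
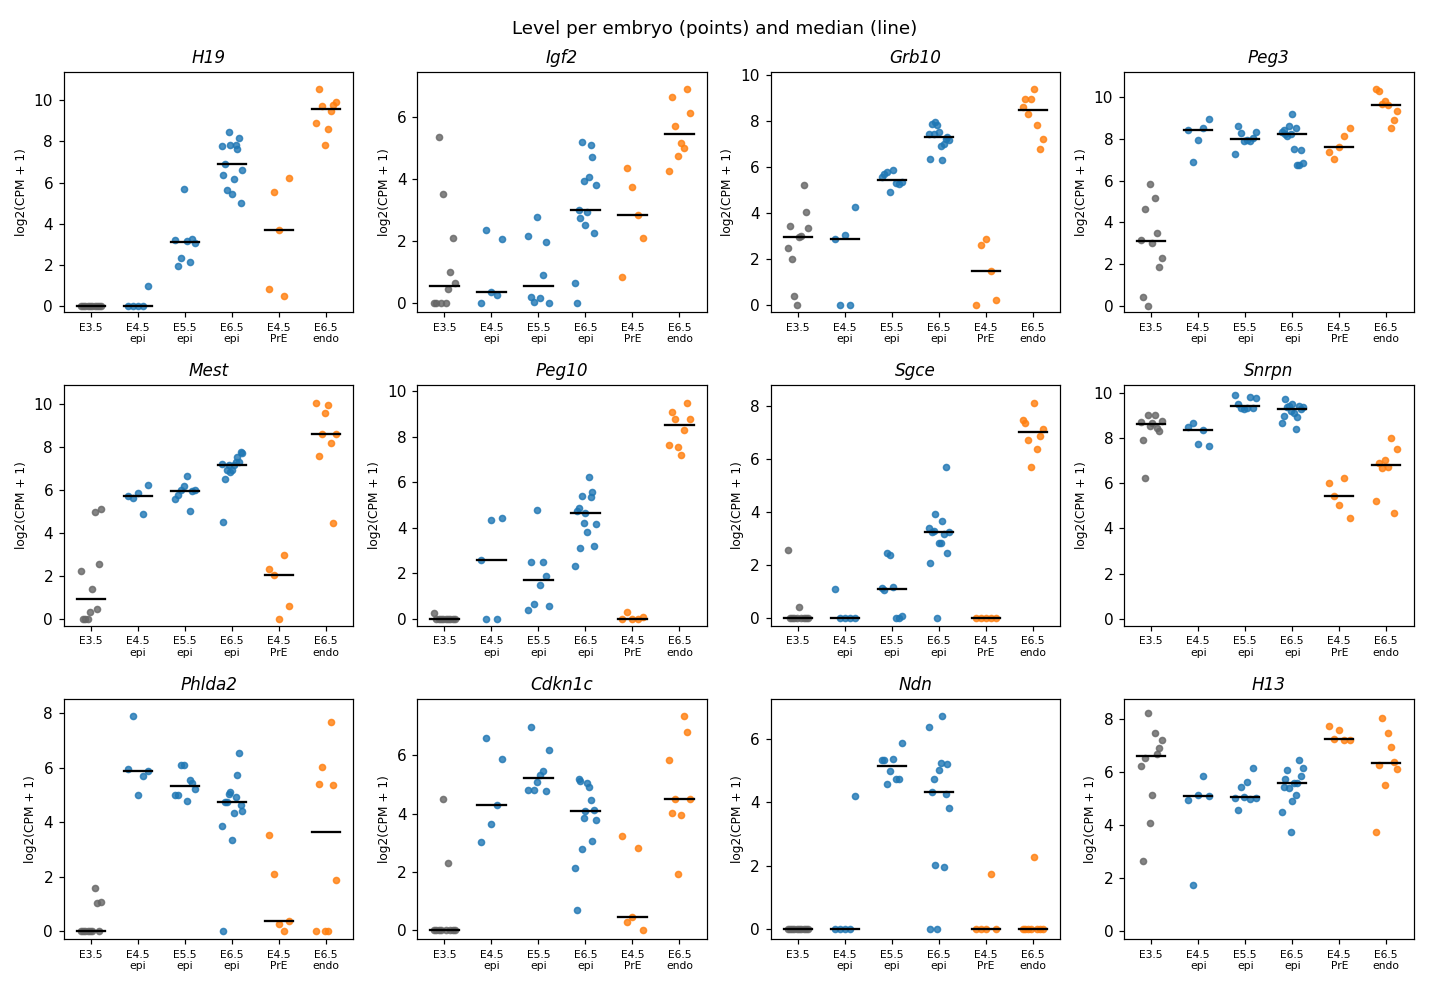
Level in each embryo as log2(CPM + 1) (vertical) for 12 imprinted genes by stage and class (horizontal; gray, E3.5; blue, epiblast-like; orange, endoderm-like); each point is 1 embryo and the line is the median. Peg10 and Sgce sit at or near 0 in the 5 PrE-like sums and above all epiblast-like sums in the 8 E6.5 endoderm-like sums.

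Meg3, a maternally expressed non-coding RNA of the Dlk1-Meg3 domain, was present at E3.5 and increased in both lineages. It ranged from 2.45 to 84.5 CPM (median 25.0) at E3.5, and the 5 E4.5 epiblast-like sums had 111, 69.9, 54.4, 25.1 and 116 CPM. The stages overlapped, with 2 of 5 E4.5 sums above all at E3.5 (log2 fold change 1.31, SE 0.45, adjusted p = 0.0306), and the call was lost without E4.5 embryo 1 (adjusted p = 0.0955) or 5 (adjusted p = 0.105; 0.00674 to 0.105 over all alternatives). It was detected in 53.3% ± 21.9 of cells at E3.5 (SD, n = 10) and in 93.1% ± 9.60 of E4.5 epiblast-like cells (n = 5). In the endoderm it went from 76.9 to 221 CPM at E4.5 to 227 to 474 CPM (median 329) at E6.5 with no overlap (1.36, SE 0.27, adjusted p = 0.00426). Dlk1, the paternally expressed Notch-ligand-like protein of the same domain, was almost absent in epiblast-like cells (at most 0.613 CPM at E6.5) and reached 22.3 CPM in 1 of 8 E6.5 endoderm-like sums.

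Peg3, a paternally expressed zinc-finger protein (chr7:6703892-6730431, minus strand), rose between E3.5 and E4.5. It ranged from 0 to 55.5 CPM (median 7.52) at E3.5 and had 343, 119, 245, 368 and 489 CPM in the 5 E4.5 epiblast-like sums. All E4.5 embryos lay above all E3.5 embryos (log2 fold change 4.38, SE 0.59, adjusted p = 3.35e-07), and the share of cells detecting Peg3 was 27.7% ± 14.1 (SD, n = 10) at E3.5 and 94.3% ± 12.8 (n = 5) at E4.5. At an equal depth of 300000 counts per cell, which leaves out 10 cells at E3.5 and 4 at E4.5, these shares were 26.7% and 89.3%. In epiblast-like cells it ranged from 152 to 384 CPM at E5.5 and from 106 to 584 CPM at E6.5, and neither step passed.

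In the endoderm Peg3 continued upward. The PrE-like sums had 164, 131, 191, 278 and 370 CPM, lower than the epiblast-like cells of the same embryo in 4 of 5 embryos. E6.5 endoderm-like sums ranged from 365 to 1326 CPM (median 795), and 7 of 8 exceeded every PrE-like sum (log2 fold change 1.92, SE 0.34, adjusted p = 0.00172). They were also higher than E6.5 epiblast-like sums (1.69, SE 0.29, adjusted p = 0.000215), within the embryo in 8 of 8. The lineage difference grew by 2.10 on the log2 scale from E4.5 to E6.5 (SE 0.51, adjusted p = 0.0198), and that call was lost without E4.5 embryo 1 (adjusted p = 0.0690) or 4 (adjusted p = 0.0611; 0.000395 to 0.0690 over all alternatives).

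Usp29 and Zim1 lie in the Peg3 domain. Usp29, a paternally expressed deubiquitinase, was in 3 of 29 E4.5 epiblast-like cells and passed as higher than E3.5, where it had no count (adjusted p = 0.0422, at least 18.1-fold higher than a floor of 3 counts in the E3.5 group). This call was lost without E4.5 embryo 4 (adjusted p = 0.102) or 5 (adjusted p = 0.0709; 0.0304 to 0.228 over all alternatives). The row counted as Usp29 starts at base 6961160 of chromosome 7, while the annotated gene runs from 6730578 to 6967219. Its level is that of the row, and how much of the gene it missed was not tested. Zim1, a maternally expressed zinc-finger gene, had at most 0.321 CPM in any sum of the 6 classes.

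Mest, a paternally expressed enzyme of the alpha/beta hydrolase fold (chr6:30723547-30748465, plus strand), was lower in the endoderm at E4.5 and higher at E6.5, and passed at both stages. At E4.5 the epiblast-like sums had 52.1, 48.9, 58.1, 28.6 and 74.0 CPM and the PrE-like sums of the same embryos 4.06, 3.09, 0, 6.88 and 0.538 CPM. The classes did not overlap (log2 fold change -4.19, SE 0.87, adjusted p = 0.00477), and Mest was detected in 68.4% ± 14.4 of epiblast-like cells and 12.3% ± 10.8 of PrE-like cells (SD, n = 5 each). At E3.5 it ranged from 0 to 33.5 CPM (median 0.996), below 4 of 5 E4.5 epiblast-like sums (2.77, SE 0.72, adjusted p = 0.00392; 0.000681 to 0.0605 over all alternatives).

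By E6.5 Mest had reached 21.5 to 1070 CPM (median 393) in endoderm-like cells and 22.1 to 219 CPM (median 144) in epiblast-like cells. All 8 endoderm-like sums were above the PrE-like sums (log2 fold change 7.49, SE 1.04, adjusted p = 0.000206), and 6 of 8 were above all epiblast-like sums (1.97, SE 0.40, adjusted p = 0.00149). The latter was 1.53 with the embryo as a block (adjusted p = 0.206) and 0.33 in embryos without a plate name alone (adjusted p = 0.811; 1.45e-05 to 0.811 over all alternatives). The lowest endoderm-like sum, 21.5 CPM, was from an E6.75 embryo. The change in the lineage difference was 6.06 (SE 0.86, adjusted p = 4.23e-05) and passed with the embryo as a block and under every other alternative run. Exons of Copg2 on the opposite strand overlap 23.1% of Mest exon bases, and whether counting used strand is not given in the sources used here.

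Peg10 and Sgce, a retrotransposon-derived gene needed for the placenta and a sarcoglycan, are paternally expressed from start sites 98 bases apart. In the PrE-like sums Peg10 had 2 counts in all and Sgce 0 counts. In E6.5 endoderm-like sums Peg10 ranged from 147 to 722 CPM (median 374) and Sgce from 51.5 to 280 CPM (median 128), with 98.2% ± 5.05 and 89.2% ± 15.5 of cells detecting them (SD, n = 8). All 8 embryos had both genes at high level and the stages did not overlap for either. Peg10 was higher by a ratio of 12227 (95% counting interval 3384 to 100968; adjusted p = 2.12e-08), and Sgce was at least 2894-fold higher than a floor of 3 counts in the PrE-like sums (adjusted p = 8.49e-07). Intervals and limits from counts cover counting error only.

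With counts pooled over the E4.5 embryos, Peg10 was higher in epiblast-like than in PrE-like cells, by a ratio of 333 (95% counting interval 91.0 to 2766). Within the embryo it was higher in epiblast-like cells in 3 of 5 and lower in 1, and it was too low in these sums to be tested. Peg10 had 4.91, 0, 18.98, 0 and 20.6 CPM in the E4.5 epiblast-like sums, 0.306 to 26.6 CPM (median 2.26) at E5.5 and 3.92 to 74.4 CPM (median 24.1) at E6.5. Its rise from E3.5, where 1 count was found, to E4.5 passed (adjusted p = 3.05e-06; ratio 630, counting interval 112 to 24994), and 2 of 5 E4.5 embryos had no count. Sgce ranged from 0 to 51.0 CPM (median 8.48) in E6.5 epiblast-like sums. At E6.5 the endoderm-like sums of Peg10 and Sgce lay above all 13 epiblast-like sums (log2 fold changes 3.89, SE 0.42, adjusted p = 4.55e-07, and 3.79, SE 0.55, adjusted p = 2.57e-05), within plates P1 to P3 and within embryos without a plate name alike. Within the embryo, both were higher in endoderm-like cells in 8 of 8.

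The lineage difference of Peg10 changed by 11.34 on the log2 scale (SE 1.36, adjusted p = 3.19e-06), and passed with the embryo as a block too. The size of this change rests on 2 counts in all PrE-like sums and ran from 5.07 to 12.27 over all alternatives (adjusted p 2.05e-18 to 0.0293). The change in the lineage difference of Sgce passed (adjusted p = 0.0305), but not with the embryo as a block (adjusted p = 0.125) nor without E4.5 embryo 1 (adjusted p = 0.9999), 2 (adjusted p = 0.0503) or 4 (adjusted p = 0.0640), with 0.000295 to 1 over all alternatives. At E4.5 Sgce had 3 counts in epiblast-like sums, all in 1 of 5 embryos, and 0 in PrE-like sums. A lineage difference of Sgce was thus hardly measured at E4.5. The trophoblast marker list, 10 genes, summed to 13.7 to 214 CPM in E6.5 endoderm-like and 2.53 to 141 CPM in E6.5 epiblast-like sums, overlapping ranges. At E6.5 the primitive streak list, 15 genes, summed to 296 to 2633 CPM in endoderm-like and 146 to 771 CPM in epiblast-like sums. The part of either list in these results was not tested.

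In the Prader-Willi/Angelman domain, Snrpn, a paternally expressed spliceosome protein (chr7:59982495-60140219, minus strand), was lower in endoderm at both stages. It ranged from 75.1 to 525.6 CPM (median 388) at E3.5 and was detected in every E3.5 cell. The E4.5 epiblast-like sums had 362, 407, 210, 328 and 198 CPM and the PrE-like sums of the same embryos 63.9, 42.0, 31.4, 73.6 and 21.0 CPM, without overlap (log2 fold change -2.74, SE 0.36, adjusted p = 0.000236). In epiblast-like cells it rose to 620 to 953 CPM (median 684) at E5.5 (1.30, SE 0.27, adjusted p = 0.00186), above all E4.5 sums, and at E6.5 it ranged from 337 to 850 CPM (median 617). E6.5 endoderm-like sums had 24.3 to 252 CPM (median 112), below every epiblast-like sum (-2.23, SE 0.30, adjusted p = 1.19e-05). In embryos without a plate name alone that difference was -1.98 (adjusted p = 0.0579; 3.11e-13 to 0.0579 over all alternatives). Exons of Gm38393 on the same strand overlap 27.28% of Snrpn exon bases. Snurf, read from the same transcripts and overlapping 216 of its 2159 exon bases, was lower in endoderm at both stages as well (-2.86, SE 0.52, adjusted p = 0.00208, and -2.27, SE 0.38, adjusted p = 0.000198).

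Ndn and Magel2, paternally expressed MAGE-family proteins, were found in all 8 E5.5 epiblast-like sums. Ndn had no count at E3.5, and its 110 counts in E4.5 epiblast-like sums came from 1 of 29 cells. It passed as at least 67.3-fold higher than a floor of 3 counts in the E3.5 group (adjusted p = 0.000445), and without E4.5 embryo 5, which held that cell, its log2 fold change was 0 (adjusted p 8.72e-64 to 1 over all alternatives). At E5.5 it ranged from 22.8 to 56.7 CPM (median 34.9) in 45.3% ± 7.58 of cells (SD, n = 8), and at E6.5 from 0 to 104 CPM (median 18.9) in 52.4% ± 29.4 (n = 13). The step from E4.5 to E5.5 did not pass for Ndn (log2 fold change 3.29, SE 1.36, adjusted p = 0.145). It was found in 1 of 35 E6.5 endoderm-like cells (-5.75, SE 1.41, adjusted p = 0.00732), a difference that missed the threshold on plates P1 to P3 alone (adjusted p = 0.103; 6.32e-06 to 0.103 over all alternatives) and was not tested with the embryo as a block, where it did not pass the filter on low counts. Magel2 had no count at E3.5 or E4.5 and 0.0437 to 8.77 CPM (median 3.77) in all 8 E5.5 sums, at least 24.8-fold higher than a floor of 3 counts in the E4.5 epiblast-like group (adjusted p = 0.00930).

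Ube3a, the maternally expressed ubiquitin ligase of the domain, was in most cells of every class and passed in no comparison. It ranged from 30.3 to 262 CPM (median 60.1) at E3.5, from 59.9 to 136 CPM (median 95.5) in E5.5 epiblast-like sums and from 64.5 to 220 CPM (median 125) in E6.5 endoderm-like sums. Peg12, a paternally expressed Frat-family gene, reached at most 7.01 CPM in any sum of the 6 classes.

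Of the maternally expressed genes of the Kcnq1 domain, Phlda2, Cdkn1c, Cd81, Ascl2 and Slc22a18 rose from E3.5 to E4.5 in the epiblast, and Kcnq1 was too low to be tested. Phlda2, a small protein that restrains placental growth, ranged from 0 to 2.005 CPM (median 0) at E3.5. At E4.5 the epiblast-like sums had 61.9, 239, 30.7, 51.4 and 57.6 CPM and the PrE-like sums 10.5, 3.31, 0.190, 0 and 0.299 CPM. The epiblast-like sums exceeded both the E3.5 sums (log2 fold change 7.42, SE 0.86, adjusted p = 1.47e-08) and the PrE-like sums without overlap (-5.01 for PrE-like over epiblast-like, SE 1.25, adjusted p = 0.0143), and the latter missed the threshold without E4.5 embryo 2 (-4.27, adjusted p = 0.0742; 0.00193 to 0.0742 over all alternatives). Later it ranged from 26.8 to 68.4 CPM at E5.5 and from 0 to 92.4 CPM (median 25.6) at E6.5 in epiblast-like sums, and from 0 to 203 CPM (median 21.7) in E6.5 endoderm-like sums, where 3 of 8 had none.

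Cdkn1c, a cyclin-dependent kinase inhibitor, followed the same onset. At E3.5 it ranged from 0 to 21.5 CPM with no count in 8 of 10 embryos, and the E4.5 epiblast-like sums had 7.17, 95.5, 11.4, 18.5 and 58.1 CPM. The stages overlapped, with 2 of 5 E4.5 sums above all at E3.5 (log2 fold change 3.85, SE 1.07, adjusted p = 0.00672; 0.00162 to 0.0556 over all alternatives). The PrE-like sums had 8.44, 0.221, 0.380, 6.10 and 0 CPM, and E6.5 endoderm-like sums 2.80 to 162 CPM (median 21.5) beside 0.633 to 35.6 CPM (median 15.9) in epiblast-like sums. The lineage difference changed by 5.22 on the log2 scale toward endoderm (SE 1.36, adjusted p = 0.0332) but not with the embryo as a block (adjusted p = 0.176) nor without E4.5 embryo 2, 3, 4 or 5 (adjusted p = 0.141, 0.0747, 0.0579 and 0.0737; 0.000539 to 0.178 over all alternatives). Exons of Gm44732 on the opposite strand overlap 30.7% of Cdkn1c exon bases.

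Cd81, a membrane tetraspanin, was in 1 of 99 cells at E3.5 and in 91.4% ± 19.2 of E4.5 epiblast-like cells (SD, n = 5). The E4.5 epiblast-like sums ranged from 66.4 to 191 CPM (median 172), above the 0 to 23.7 CPM at E3.5 (log2 fold change 6.03, SE 0.86, adjusted p = 1.25e-06; 1.86e-14 to 0.0576 over all alternatives, the highest with DESeq2). Ascl2, a transcription factor of the trophoblast, had no count at E3.5 and 0 to 19.2 CPM (median 6.69) at E4.5, at least 167-fold higher (adjusted p = 0.000131). Slc22a18, a transporter, passed at least 11.2-fold higher (adjusted p = 0.0345), a call lost without E4.5 embryo 4 (adjusted p = 0.232; 0.0310 to 0.447 over all alternatives). Kcnq1, a potassium channel, was found in 0 of 173 E6.5 epiblast-like cells, which allows a share of cells with a count of up to 1.73% (counting error only).

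Gnas, the stimulatory G-protein alpha subunit (chr2:174284320-174346744, plus strand), rose at both later epiblast steps. The E4.5 epiblast-like sums had 52.1, 72.8, 64.2, 56.6 and 89.3 CPM, and the sums at E5.5 and E6.5 ranged from 121 to 219 CPM (median 150) and from 233 to 421 CPM (median 361). Each stage lay above the one before without overlap (log2 fold changes 1.22, SE 0.29, adjusted p = 0.00650, and 1.17, SE 0.23, adjusted p = 0.000482). PrE-like sums had 156, 95.7, 159, 122 and 151 CPM, all above the epiblast-like sums, with a difference of 1.01 (SE 0.27, adjusted p = 0.0191) that stayed under the limit of 2. From PrE-like to E6.5 endoderm-like cells, with 113 to 496 CPM (median 362), it rose by 1.37 (SE 0.31, adjusted p = 0.00801; 0.000303 to 0.0762 over all alternatives). Nespas, the paternally expressed antisense RNA of the domain, shares 31.4% of its exon bases with Gnas and passed in no comparison.

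H13, the maternally expressed host of the retrogene Mcts2, was the member that passed as higher in PrE-like than in epiblast-like cells. The PrE-like sums had 214, 151, 189, 148 and 147 CPM and the epiblast-like sums 30.2, 2.33, 34.3, 56.8 and 33.2 CPM. The classes did not overlap (log2 fold change 2.41, SE 0.51, adjusted p = 0.00521). At E3.5 it ranged from 5.33 to 302 CPM (median 96.5), and the fall to E4.5 epiblast-like cells was -1.77 (SE 0.59, adjusted p = 0.0263), a call lost without E4.5 embryo 1, 2 or 5 (adjusted p = 0.0531, 0.0728 and 0.0521; 0.00193 to 0.0728 over all alternatives). At E6.5 the endoderm-like sums (12.5 to 263 CPM, median 79.4) and epiblast-like sums (12.5 to 87.5 CPM, median 46.6) overlapped (1.27, SE 0.39, adjusted p = 0.0318), and the adjusted p was 0.320 with the embryo as a block, 0.0762 on plates P1 to P3 alone and 0.441 in embryos without a plate name alone (0.0109 to 0.638 over all alternatives).

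Mcts2, a paternally expressed retrogene inside an intron of H13, rose from 12.3 to 77.1 CPM in PrE-like cells to 49.0 to 218 CPM (median 111) in E6.5 endoderm-like cells (log2 fold change 1.58, SE 0.46, adjusted p = 0.0416). This was lost without E4.5 embryo 1, 3, 4 or 5 (adjusted p = 0.100, 0.118, 0.0930 and 0.0772; 0.00483 to 0.215 over all alternatives). Commd1, maternally expressed and involved in copper handling, was found in every cell of the 6 classes. It rose from 81.1 to 481 CPM (median 259) at E3.5 to 483 to 778 CPM (median 573) in E4.5 epiblast-like cells without overlap (1.23, SE 0.24, adjusted p = 0.000214), with log2 fold changes of 0.99 to 1.30 over all alternatives. The row counted as Commd1 starts at base 22834744 of chromosome 11, while the annotated gene runs from 22896136 to 22982382. That row reaches outside the annotated gene, and how much of its counts came from Commd1 was not tested. Zrsr1, the paternally expressed retrogene inside Commd1, shares 9.17% of its exon bases with it and passed in no comparison.

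Of the remaining members, Inpp5f, a phosphoinositide phosphatase, rose from 5.52 to 33.8 CPM in PrE-like cells to 20.8 to 190 CPM (median 74.7) in E6.5 endoderm-like cells (log2 fold change 2.13, SE 0.57, adjusted p = 0.0266). That call was lost without E4.5 embryo 1, 2 or 4 (adjusted p = 0.0657, 0.0670 and 0.0743; 0.00104 to 0.118 over all alternatives). Dcn, a matrix proteoglycan, had no count at E3.5 and 0 to 17.2 CPM in E4.5 epiblast-like sums, at least 79.1-fold higher (adjusted p = 0.000151), from 3 of 29 cells. At E5.5 it was found in 31.2% ± 8.28 of epiblast-like cells (SD, n = 8) and at E6.5 in 1 of 35 endoderm-like cells. Nnat, a membrane proteolipid, was in 78.1% ± 8.99 of E5.5 epiblast-like cells (n = 8) at 29.0 to 94.7 CPM and in 40.7% ± 20.4 of E4.5 epiblast-like cells (n = 5) at 0.279 to 28.1 CPM, and passed in no comparison. Impact passed in none either, nor did Plagl1 in those where it was tested. Nap1l5 and Rasgrf1 were too low to be tested in any.

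The 13 E6.5 embryos came with a plate name (P1 to P3, 9 embryos) or without one (4 embryos, among them both titled E6.75). The plate name cannot be told apart from the cluster that the epiblast-like cells fell in. Peg3 in epiblast-like cells had a mean of 338 ± 110 CPM (SD, n = 9) in the former and 125 ± 32.7 CPM (n = 4) in the latter, and the ranges, 180 to 584 CPM and 106 to 174 CPM, did not overlap. Impact, an inhibitor of the stress kinase Gcn2, had 129 ± 44.2 and 34.6 ± 22.2 CPM, with ranges of 60.4 to 202 CPM and 6.66 to 60.1 CPM. Mest went the other way, with 117 ± 41.1 and 192 ± 28.5 CPM. H19, with 154 ± 107 and 154 ± 113 CPM, was at the same mean in both. These splits were described and not tested. Of the 11 members that passed between the classes at E6.5, H19, Peg3, Peg10 and Sgce passed on plates P1 to P3 alone, in embryos without a plate name alone, and with the embryo as a block.

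**Figure D4:**
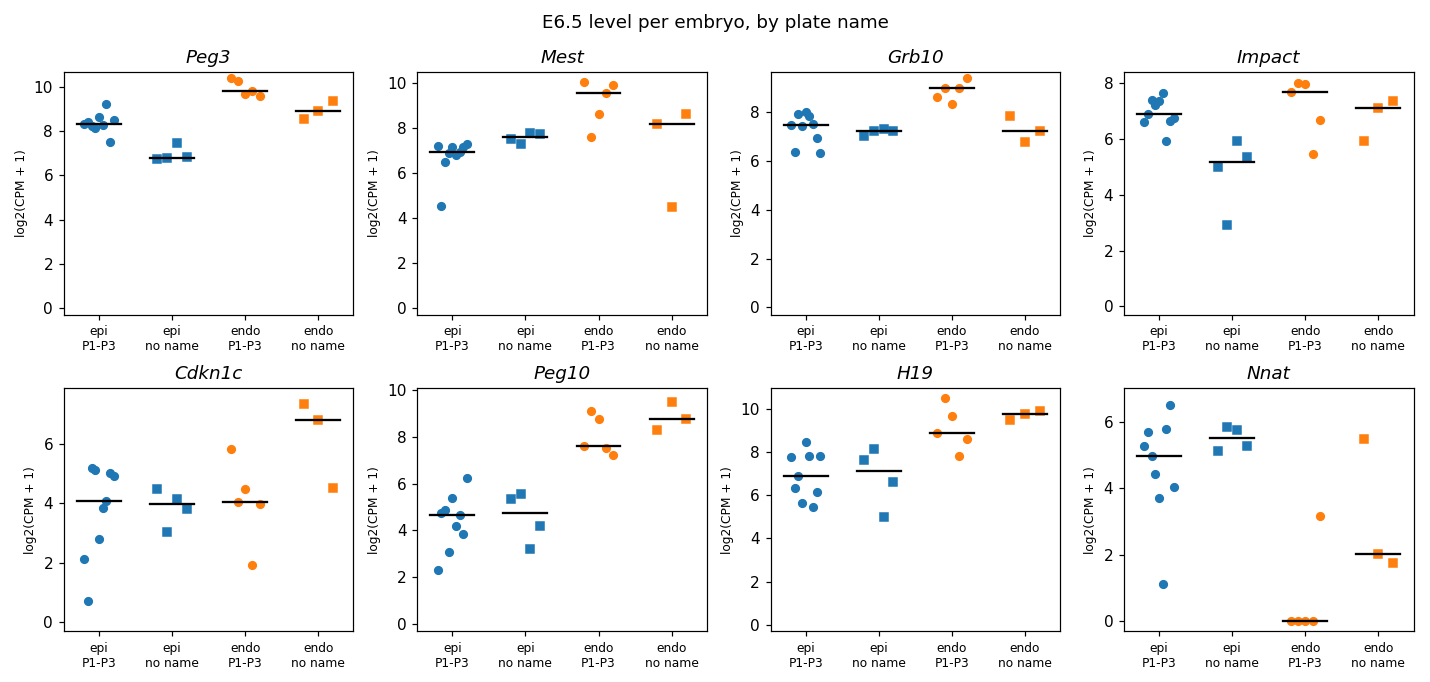
Level in each E6.5 embryo as log2(CPM + 1) (vertical) for 8 imprinted genes in epiblast-like (blue) and endoderm-like (orange) sums of embryos on plates P1 to P3 (circles) and of embryos without a plate name (squares); lines are medians. Peg3 in epiblast-like sums is 180 to 584 CPM on named plates and 106 to 174 CPM without a plate name.

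Factors that protect imprints also changed between these classes and stages. Zfp57, the zinc-finger protein that reads the hexamer shown above, had 145 to 168 CPM in E4.5 epiblast-like sums, 3.94 to 42.2 CPM in PrE-like sums (log2 fold change -2.77, SE 0.52, adjusted p = 0.00248), and 2.41 to 24.3 CPM in E5.5 epiblast-like sums (-3.83, SE 0.74, adjusted p = 0.000691), with no overlap in either comparison. Trim28, the corepressor it recruits, had 573 to 805 CPM in E4.5 epiblast-like and 139 to 285 CPM in PrE-like sums. Dppa3, which guards maternal methylation in the zygote, fell at each epiblast step, with mean levels of 4861 ± 823 CPM in the 10 E3.5 sums (SD), then 262 ± 160 CPM, 58.4 ± 18.7 CPM and 6.42 ± 5.29 CPM in epiblast-like sums, with log2 fold changes of -4.23, -2.18 and -3.15 (adjusted p = 8.31e-06, 0.00979 and 5.37e-06). From E3.5 to E4.5 in the epiblast, Dnmt1, Hells and Rif1 rose (log2 fold changes 1.29, 1.99 and 1.499), 3 of 13 factors tested against 13.3% of all genes. Smchd1 rose from E4.5 to E5.5 in the epiblast (1.47) and from E4.5 to E6.5 in the endoderm (1.16), and Rif1 fell from E4.5 to E5.5 (-1.30). At E4.5, with the log2 limit of 2, 2 of 13 factors passed as lower in PrE-like than in epiblast-like cells, Zfp57 and Rif1 (3.70% of all genes). Trim28, Hells, Setdb1 and Uhrf1 were lower as well but stayed under that limit. Their log2 fold changes were -1.66, -1.98, -1.18 and -1.10 (adjusted p = 0.000225, 0.00261, 0.0130 and 0.0164, edgeR). Of all 10119 genes, 1570 had an adjusted p of at most 0.05 in either direction. At E6.5, with the limit of 1, Rif1 was lower in endoderm-like cells.

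Markers of other tissues were followed because several members are strongly expressed in placenta. Of the 721 libraries, 4 met the study's own rule for trophoblast cells (more than 1 count in each of Elf5, Wnt7b and Tex19.1), 2 at E3.5 and 2 at E5.5. The E3.5 cells had 107 and 43.5 CPM of Igf2. The E5.5 cells had 464 and 606 CPM of H19, 76.6 and 518 CPM of Peg10 and 125 and 107 CPM of Phlda2. These means, in CPM of the summed counts without TMM scaling, moved when the cells were left out, which also took 1 E3.5 embryo below 3 cells. Without them the mean of H19 in E5.5 epiblast-like sums was 6.995 in place of 11.4 CPM, that of Peg10 was 2.51 in place of 5.17 CPM, and that of Igf2 at E3.5 was 0.573 in place of 5.92 CPM. With them left out, 5 members instead of 3 passed from E5.5 to E6.5, and Usp29 no longer passed from E3.5 to E4.5. Blood markers summed to at most 2.19 CPM in E6.5 endoderm-like sums but for 1 embryo at 1889 CPM, and their part in the results was not tested.

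Imprinted genes outside the 40 were tested in the same fits. Of 19 tested at E4.5, Sfmbt2 was higher in PrE-like than in epiblast-like cells (log2 fold change 3.86; 5.32% of all genes were higher) and Cobl and Snurf were lower (3.70%). Of 21 tested at E6.5, Ddc, Copg2 and Gab1 were higher in endoderm-like cells (5.82%) and Atp10a and Snurf lower (3.57%). Copg2 shares exon bases with Mest on the opposite strand. From E3.5 to E4.5 in the epiblast, 6 of 28 were higher (13.3%) and 2, Pon2 and Smoc1, were lower (7.89%). At the next step Snurf was higher (3.66%) and Cobl and Slc38a4 were lower (3.04%), and from E5.5 to E6.5 Rtl1 was lower (5.09%) and 0 were higher. Within the endoderm Asb4, Tfpi2, Copg2 and Ddc were higher at E6.5 among 21 tested (4.41%).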

How the data were processed

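The deposited table holds raw counts of reads per gene, made by the authors with Trim Galore 0.4.3 and HISAT2 2.0.5 on GRCm38 (versions per the submitters' processing notes), from primary alignments (mapping quality 20 or more) counted in SeqMonk. Strand use in counting is not given in the sources used here. Cells were clustered by consensus k-means (8 clusters over all cells, 5 at E6.5) without imprinted genes or imprint-protecting factors, and clusters were named from marker genes, with the limits for naming set after the data were seen. Counts were summed per class and embryo and tested with edgeR 4.0.16 in R 4.3.3 (TMM, filterByExpr, quasi-likelihood, Benjamini-Hochberg over all genes tested). Every one of the 40 members was to be named. The members and lists were chosen with earlier results of these data known. Differences within an embryo used log2(CPM + 1). The embryo was taken as a block in an alternative because both classes came from the same animal (correlation of deviations 0.0412 to 0.170 at E4.5 and 0.0413 to 0.242 at E6.5). DESeq2 1.42.0, other filters, Ward classes, single-cell wells and left-out embryos were alternatives. The tests were also run on simulated data, and no result of that run is given here.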

Additional observations from a re-analysis of the deposited data

Results flagged for a closer look

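In 74 groups of 4 to 10 embryos, the highest or lowest value of a member was compared with its neighbours on the log2(CPM + 1) scale by Dixon's criterion, which by chance marks about 1 group in 20. It marked 7 values. At E3.5, 1 embryo had 75.1 CPM of Snrpn. At E4.5, 1 embryo had 27.4 CPM of Cd81 in PrE-like cells, 1 had 66.4 CPM of Cd81 in epiblast-like cells and 1 had 2.33 CPM of H13 in epiblast-like cells. At E5.5, 1 embryo had 36.4 CPM of Dcn in epiblast-like cells, above the others. At E6.5, endoderm-like cells of 1 embryo had 21.5 CPM of Mest and those of another had 113 CPM of Gnas, both below the others.

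The difference between endoderm-like and epiblast-like cells changed from E4.5 to E6.5 by the test of that change itself for Peg3 (2.10 on the log2 scale), Mest (6.06), Peg10 (11.34), Sgce (7.36) and Cdkn1c (5.22). Sgce had no count in PrE-like cells and 3 counts in E4.5 epiblast-like cells, so its fitted value depends on the prior count and is no bound. Peg10 had 2 counts in PrE-like cells, and its value ran from 5.07 to 12.27 over all alternatives.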

How the results depend on the processing

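Of the 54 member changes, 27 passed under every alternative run, 27 missed the threshold under at least 1, and 0 reversed. From E5.5 to E6.5 in the epiblast, 7 members passed with DESeq2, 5 without a filter on low counts, 5 with Ward classes, 9 with sums of at least 5 cells and 5 without the cells that carry trophoblast genes, against 3. Between the E4.5 classes 9 passed without the filter, against 4. For the change in the lineage difference, 3 passed with single-cell wells, 3 with sums of at least 1 cell and 3 with sums of at least 5 cells, against 5. Between the E6.5 classes 7 passed without cells titled E6.75, 7 in embryos without a plate name alone and 6 with the embryo as a replicate block, against 11. Leaving out each E4.5 embryo in turn gave 3 to 5 members between the E4.5 classes, 11 to 16 from E3.5 to E4.5, 4 to 7 from E4.5 to E5.5, 8 to 10 within the endoderm and 2 to 4 for the change in the lineage difference. The share of all genes that passed under each alternative is not given here, so changes in these counts may not be particular to the members. The cause was not tested. The alternatives without trophoblast-gene cells and with embryos without a plate name alone were chosen after seeing the data. With the block, 4 of the 4 members between the E4.5 classes, 5 of the 11 between the E6.5 classes and 3 of the 5 for the change in the lineage difference passed again, and 1 other member passed in each.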

Other observations

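The 23 primitive streak-like cells came from 1 E6.5 embryo and have no replicate. Their sum had 306 CPM of Phlda2, 715 CPM of Gnas, 473 CPM of Peg3, 314 CPM of Mest and 267 CPM of Grb10. The 13 epiblast-like sums reached at most 92.4 CPM of Phlda2 and 421 CPM of Gnas. The 5 endoderm-like cells of 1 E5.5 embryo had 492.5 CPM of H19, 580 CPM of Peg3, 42.3 CPM of Sgce and 13.2 CPM of Snrpn.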
